A study of Homo sapiens with 8 samples.

Results

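Histone genes were examined in the poly(A) RNA of cultured human podocytes after LATS2 overexpression. Members were the loci of the deposited gene table whose name is that of a replication-dependent histone gene (HIST1 to HIST4 symbols) or of a replacement histone gene (H1F0, H1FX, the H2AF symbols and H3F3A, H3F3B or H3F3C). These were 86 of the 29004 loci in the table, 72 replication-dependent and 14 replacement, with 82 distinct names. All 8 samples came from 1 stable AB8/13 line, immortalized human podocytes in which a lentiviral construct expresses wild-type LATS2 under the control of doxycycline. The drug, at 125 ng/mL over 8 h, was given to 4 samples (LATS2 OE) and withheld from the other 4 (untreated), all of which carried the construct. Drug and LATS2 expression cannot be told apart, as no sample received doxycycline without carrying the construct.

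Replication-dependent histone genes supply the bulk of H1, H2A, H2B, H3 and H4 while DNA is copied. Their mRNAs usually end in a conserved stem-loop in place of a poly(A) tail, which the stem-loop binding protein SLBP holds during processing, export and translation. Replacement histones are made throughout the cell cycle from polyadenylated mRNAs and enter chromatin outside DNA replication. Selection for poly(A) therefore keeps transcripts of the replacement kind and only those transcripts of the other kind that carry a tail.

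The table held 1 FPKM value (fragments per kilobase of transcript, scaled to the sequencing depth) per group, pooled by the authors over its 4 samples. No value of a single sample, no SD and no test across samples could therefore be given, and the depth behind a single value is unknown. Each difference below compares 2 pooled values, and its size relative to the spread between replicates is unknown. The ratio is LATS2 OE over untreated, and a ratio of at least 1.2-fold in either direction (0.263 on the log2 scale) served as a mark of size and not as a test. Most cells of 1 FPKM or more had lost their decimal point, so that a level of that size was often known only up to a factor of 10 or 100, while its ratio and all values under 1 FPKM were known. LATS2 itself was 20.1-fold higher in LATS2 OE (log2 ratio 4.33) when its decimal point was placed with the help of the deposited ratio. Placed without it, at the ratio nearest to 1, the same digits gave 2.01-fold, so the size of the LATS2 difference is not an independent check of the labels.

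NPHS1 (nephrin), which defines podocytes, was nearly absent, at 0.00875 FPKM in untreated and 0.00616 in LATS2 OE. Of the other podocyte markers, 4 (SYNPO, PODXL, CD2AP and ACTN4) had at least 1 FPKM in both groups. The 4 endothelial and 3 tubular markers were all under 1 FPKM, as were 2 of the 3 leukocyte markers, CD68 being the exception.

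The stem-loop is shown first because it is the feature by which mRNAs of both kinds are known to differ. It was searched as GGNNCTTTTNANNNCC on the gene's own strand within 150 bases after the stop codon of GENCODE release 44 models on hg19. Of 20048 protein-coding genes, 68 (0.339%) carried these letters, and 62 of the 68 were gene models matched to a histone member. HIST1H2BF, HIST1H2BG, HIST1H4F and 1 copy each of HIST2H4B, HIST2H3C and HIST2H2AA4 had no matched model. The rest of the 68 were not identified and may include these genes. The matches among members were H2AFX and 61 of the 64 coding models of replication-dependent genes, and they began 23 to 68 bases after the stop codon (median 37). H2AFX was the only replacement member with a match. No match was found for HIST1H3E, HIST1H2BI or HIST1H4L, which says only that these letters are not in this window. The elements of H2AFX and of 9 replication-dependent genes of at least 1 FPKM follow, with hg19 coordinates of the 16 bases in capitals (the stem-loop) and 5 flanking bases on each side in lower case.
HIST1H1C (chr6:26055972-26055987, minus strand): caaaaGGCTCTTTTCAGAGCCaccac
HIST1H2AC (chr6:26124897-26124912, plus strand): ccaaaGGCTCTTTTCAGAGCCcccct
HIST1H2AG (chr6:27101294-27101309, plus strand): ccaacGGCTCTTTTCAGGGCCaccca
HIST1H2AM (chr6:27860482-27860497, minus strand): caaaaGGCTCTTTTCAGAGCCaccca
HIST1H2BC (chr6:26123700-26123715, minus strand): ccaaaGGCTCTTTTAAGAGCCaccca
HIST1H2BD (chr6:26158815-26158830, plus strand): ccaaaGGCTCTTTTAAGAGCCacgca
HIST1H2BJ (chr6:27100100-27100115, minus strand): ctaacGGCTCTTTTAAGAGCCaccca
HIST1H2BK (chr6:27114145-27114160, minus strand): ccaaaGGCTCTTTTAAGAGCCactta
HIST2H3D (chr1:149784783-149784798, minus strand): ctaaaGGCTCTTTTCAGAGCCactgc
H2AFX (chr11:118965608-118965623, minus strand): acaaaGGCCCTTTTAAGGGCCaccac

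All of these lie in the 3′ untranslated part of the gene. The form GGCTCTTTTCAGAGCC, seen in HIST1H1C, was carried by 37 of the 61 replication-dependent genes, of the H1, H2A, H2B and H3 families. All 12 H4 genes with a match had a stem of GGCCCT with AGGGCC instead, 9 with the loop bases TTTC and 3 with TTTT. The stem of H2AFX is of this H4 form, with the loop bases TTTA.

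Replacement histone genes were far more often well represented than replication-dependent ones. At least 1 FPKM in both groups was reached by 10 of 14 replacement loci (71.4%) and by 12 of 72 replication-dependent loci (16.7%), beside 12218 of all 29004 loci (42.1%). A further 44 replication-dependent loci (61.1%) lay above 0 and under 1 FPKM, 15 (20.8%) were listed at 0 in both groups, and HIST1H2BN was above 1 FPKM in untreated only. Of the remaining replacement loci, H3F3C was under 1 FPKM and the 3 loci named H2AFB2 were listed at 0.

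**Figure D1:**
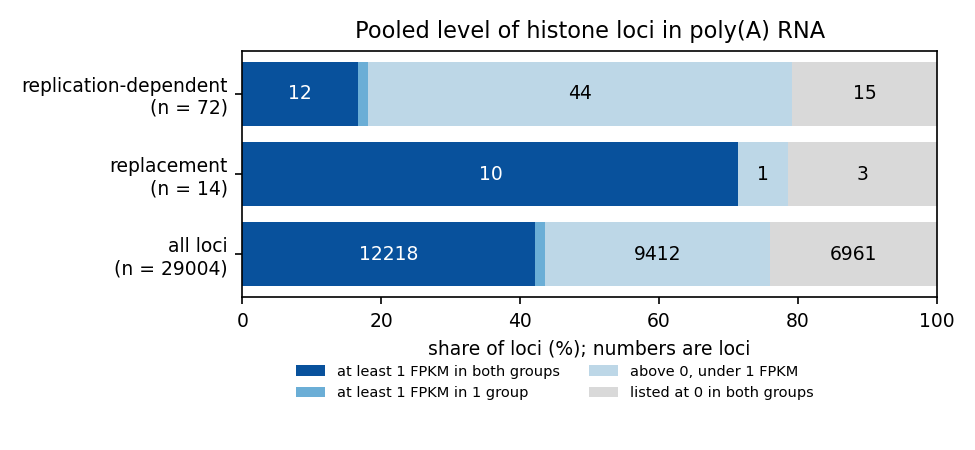
Share of loci (%, x axis) by pooled level for 72 replication-dependent loci, 14 replacement loci and all 29004 loci, with the number of loci written on the bars. The darkest part, at least 1 FPKM in both groups, holds 10 of 14 replacement and 12 of 72 replication-dependent loci.

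The replication-dependent loci of at least 1 FPKM were unevenly spread over the families. They were 6 of 20 H2B loci, 3 of 18 H2A loci, and 1 each of 6 H1 loci (HIST1H1C), 13 H3 loci (HIST2H3D) and 15 H4 loci (HIST1H4C). The H2B loci were HIST1H2BC, HIST1H2BD, HIST1H2BJ, HIST1H2BK, HIST2H2BA and HIST2H2BC, and the H2A loci HIST1H2AC, HIST1H2AG and HIST1H2AM. The GENCODE models list HIST2H2BA as a long non-coding RNA and HIST2H2BC as a pseudogene.

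Genes known to give tailed transcripts made up part of this set. HIST1H1C, HIST1H2AC, HIST1H2BD, HIST1H2BJ, HIST1H2BK and HIST2H2BE are replication-dependent genes known to give polyadenylated as well as stem-loop mRNA, and 5 of these 6 had at least 1 FPKM, beside 7 of the other 66 loci (10.6%). The exception was HIST2H2BE, at 0.555 FPKM in untreated and 0.517 in LATS2 OE. HIST1H4C, HIST2H3D, HIST1H2AG, HIST1H2AM and HIST1H2BC reached 1 FPKM without being on that list. The list was chosen with earlier results of these data known, so the contrast with the other 66 loci is not an independent check. Whether a poly(A) tail accounts for the level of these genes was not tested.

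How far the deposited loci ran past the stem-loop differed between the levels, while the gene models gave no such order. Of the 10 coding replication-dependent loci of at least 1 FPKM, 6 ran 100 bases or more past it, against 8 of 40 under 1 FPKM in both groups and none of 10 listed at 0, counting genes with a stem-loop. By the GENCODE models of the genes themselves, the counts were 4 of 10, 6 of 40 and 4 of 10, the last being HIST2H4B, HIST3H2BB, HIST3H2A and HIST1H2AA. The distances to the end of the deposited locus were 14533 bases for HIST1H2AC, 12947 for HIST1H2BD, 10556 for HIST1H2BC, 9765 for HIST1H2BJ, 8073 for HIST1H2BK and 2016 for HIST1H2AG. HIST1H2AM, HIST1H4C, HIST1H1C and HIST2H3D ended 3 to 5 bases past the stem-loop and still had at least 1 FPKM. The models of HIST1H2BK and HIST1H2AG end 5 bases past the stem-loop, and the locus of HIST1H2BK is shared with HIST1H4I. A deposited locus can cover more than 1 gene, so a long locus is not proof of a long transcript. The replacement locus of H2AFX ran 1023 bases past its stem-loop.

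Locus length went along with level. Of 39 replication-dependent loci shorter than 500 bases, 3 had at least 1 FPKM, 27 were above 0 and under 1 FPKM and 9 were listed at 0. Of 33 longer ones, 9 had at least 1 FPKM. The length of 500 bases was chosen after the values were seen.

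Copies of 1 gene cannot be told apart by reads of 80 bases. HIST2H4B, HIST2H3C and HIST2H2AA4 are each present at 2 loci in the table, identical over 396 of 396, 507 of 507 and 534 of 534 bases of the shorter locus, and all 6 loci were listed at 0 in both groups. Every run of 80 bases of these 6 genes was also found in another histone locus, and they were the only loci of the 72 for which that was so. HIST1H4J shared 90.3% of its runs and was at 0.0456 FPKM in untreated and 0.0750 in LATS2 OE, and HIST1H4K shared 90.9% and was listed at 0. Of the loci of at least 1 FPKM, HIST2H2BA shared 33.8% and HIST2H3D 31.7%, so their values may hold reads of other histone loci. The same limit applies to HIST1H2AI (64.9%) and HIST1H2AJ (70.3%), both under 1 FPKM. A listed 0 can be a failed estimate, since 6 loci of this table with too many reads, among them the actin genes ACTB and ACTG1, are listed at 0 as well.

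The other 9 replication-dependent loci at 0 included genes of the germ line. HIST1H1T, HIST1H2AA and HIST1H2BA, known from the testis, were at 0 in both groups, as were the 3 H2AFB2 loci, while HIST3H3 was at 0 in untreated and 0.0216 FPKM in LATS2 OE. HIST3H2A and HIST3H2BB, which lie back to back, were also at 0, as were HIST1H4F, HIST1H4G, HIST1H4K and the pseudogene HIST1H2APS1.

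The replication-dependent genes of at least 1 FPKM did not move together between the groups. Of 12 loci, 3 were at least 1.2-fold higher in LATS2 OE and 1 was at least 1.2-fold lower. Over all 12212 loci of this level with a ratio, 12.7% passed this mark, 6.13% upward and 6.62% downward. The median log2 ratio of the 12 loci was -0.0020 (range -0.37 to 0.33), beside -0.0042 over all 12212 loci, and 6 of the 12 ratios were above 0 and 6 below. In bulk RNA, a change in the share of cells in S phase and one in histone mRNA per such cell cannot be told apart.

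The 3 higher genes code for H2B and H3. HIST1H2BJ, which codes for an H2B, read 1.72 FPKM in untreated and 2.17 in LATS2 OE, or 10 or 100 times both, a ratio of 1.26. HIST2H3D, a canonical H3 gene, read 1.67 and 2.08 on the same terms, a ratio of 1.25. HIST1H2BD, a further H2B gene, read 1.19 and 1.43 (ratio 1.2), barely past the mark.

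HIST1H2AG, an H2A gene, was the only 1 lower by the mark, at 1.53 FPKM in untreated and 1.19 in LATS2 OE, or 10 or 100 times both (ratio 0.775). Its log2 ratio of -0.37 and those of HIST1H2BJ (0.33) and HIST2H3D (0.32) lay outside the 5th to 95th percentile of all loci of this level, which ran from -0.32 to 0.30. All 3 thus stood near the edge of what the table holds and not far past it.

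The other 8 loci differed by less than the mark. HIST1H4C, an H4 gene, read 8.96 and 8.79 FPKM (ratio 0.980), HIST1H1C, a linker histone gene, 1.53 and 1.48 (ratio 0.967), and HIST1H2BK 1.43 and 1.45 (ratio 1.02), each or 10 or 100 times both values. HIST1H2AM read 1.45 and 1.32 on the same terms (ratio 0.909). HIST2H2BA read 1.76 and 1.65 on those terms too (ratio 0.940), and HIST2H2BC 1.71 and 1.64 or 10 times both (ratio 0.960). HIST1H2AC (7.32 and 7.60, ratio 1.04) and HIST1H2BC (3.41 and 3.63, ratio 1.07), open by the same factors of 10 and 100, share 1 deposited locus, chr6:26113144-26139445, on opposite strands. The kit does not mark strand, so reads of overlapping parts could not be told apart. The same limit applies to all 6 pairs of histone loci with identical coordinates. The other pairs were HIST1H2AE with HIST1H2BG, HIST1H2BH with HIST1H3F, HIST1H2AK with HIST1H2BN, HIST1H2BK with HIST1H4I and HIST2H2AA4 with HIST2H2BC.

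The replacement genes differed little, and mostly upward. Of 10 loci, 8 had a ratio above 1, beside 48.4% of all loci of this level, and 1, H1F0, passed the mark, beside the 12.7% of all loci. Their median log2 ratio was 0.0594, with a range from -0.0047 to 0.28. The median distance from 0 was 0.0594 for these 10 loci, 0.0909 for the 12 replication-dependent loci and 0.0731 for all loci of that level. With no replicate values, the difference between both kinds of histone gene could not be tested.

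Among the linker histones, H1F0, which builds up in cells that leave the cycle, read 2.69 FPKM in untreated and 3.27 in LATS2 OE, or 10 or 100 times both, a ratio of 1.21. H1FX, the other replacement H1, read 8.78 and 9.59 on the same terms (ratio 1.09). Both were thus on the upper side, beside 0.967 for HIST1H1C, the only replication-dependent H1 gene of at least 1 FPKM. Of the 4 replication-dependent H1 loci under 1 FPKM, 3 were also higher in LATS2 OE and 1 was lower.

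Among the H2A variants, H2AFX was the only histone member of this class whose level was settled. H2AFX, the H2A that is phosphorylated at DNA breaks, stood at 213 FPKM in untreated and 221 in LATS2 OE (ratio 1.04). H2AFJ, a variant close to canonical H2A, had a ratio of 1.12 (4.66 and 5.21 FPKM, or 10 or 100 times both), the highest of the H2A variants. H2AFZ and H2AFV, which both code for H2A.Z at promoters and enhancers, had ratios of 0.997 (8.56 and 8.53) and 1.02 (8.88 and 9.06). The macroH2A genes H2AFY and H2AFY2, linked to silent chromatin, had ratios of 0.997 (9.08 and 9.05) and 1.02 (2.09 and 2.13). Except for H2AFX, these levels were open by the same factors of 10 and 100.

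The H3 variant that is laid down at active genes comes from H3F3A and H3F3B. H3F3A read 4.18 FPKM in untreated and 4.38 in LATS2 OE (ratio 1.05) and H3F3B 2.31 and 2.46 (ratio 1.07), in each case or 10 or 100 times both. Their primate-specific relative H3F3C, under 1 FPKM, was at 0.0887 FPKM in untreated and 0.146 in LATS2 OE (log2 ratio 0.72).

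**Figure D2:**
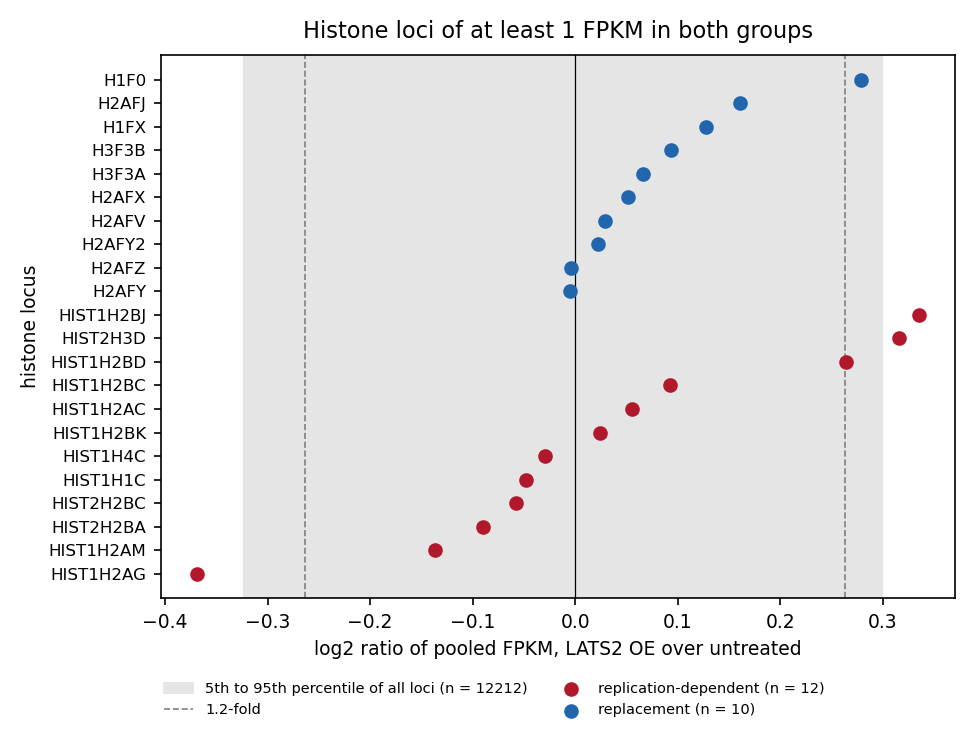
Log2 ratio of pooled FPKM, LATS2 OE over untreated (x axis), of the 22 histone loci that reached 1 FPKM in both groups, with 1 point per locus, dashed lines at 1.2-fold and a grey band from the 5th to the 95th percentile of all 12212 loci. The 10 replacement loci lie between -0.0047 and 0.28, and the 12 replication-dependent loci between -0.37 and 0.33.

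Ratios of the low replication-dependent genes were wider. Of 27 loci between 0.1 and 1 FPKM in both groups, 6 were at least 1.2-fold higher and 9 at least 1.2-fold lower in LATS2 OE, which is 55.6% in both directions. Of all 4202 loci of this level 49.5% passed the mark, 28.0% upward and 21.6% downward. The median log2 ratio was -0.10 for the 27 loci and 0.0478 for the 4202. The summed level of all 44 replication-dependent loci under 1 FPKM was 13.9 FPKM in untreated and 13.5 in LATS2 OE, with 24 of the loci higher in LATS2 OE and 20 lower.

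By family, the sums differed in both directions, and that of H2A passed the 1.2-fold mark. The 10 low H2A loci summed to 3.66 FPKM in untreated and 3.03 in LATS2 OE, and the 9 H4 loci to 2.81 and 2.58. The 11 H2B loci summed to 3.86 and 4.02, the 10 H3 loci to 3.06 and 3.36 and the 4 H1 loci to 0.478 and 0.498. The H2A sum was the one furthest from equal, with a log2 ratio of -0.27.

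Of the low H2A genes, HIST2H2AC carried most of that difference, at 0.987 FPKM in untreated and 0.508 in LATS2 OE. HIST1H2AH was at 0.240 and 0.112. HIST1H2AE was at 0.777 and 0.653, and HIST1H2AL at 0.398 and 0.348, both within the mark. HIST1H2AI (0.222 and 0.208 FPKM), HIST1H2AK (0.570 and 0.574) and the locus named for both HIST1H2AD and HIST1H3D (0.442 and 0.496) were nearly level. Apart from HIST2H2AC and HIST1H2AH, no H2A locus between 0.1 and 1 FPKM in both groups passed the mark.

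The low H2B genes went both ways. HIST1H2BL was at 0.304 FPKM in untreated and 0.488 in LATS2 OE, HIST1H2BG at 0.468 and 0.697, and HIST2H2BF at 0.650 and 0.781, all above the mark. HIST1H2BG shares its deposited locus with HIST1H2AE, so the reads of both genes may be mixed. On the lower side were HIST1H2BO, at 0.564 and 0.352, and HIST1H2BI, at 0.129 and 0.104. HIST1H2BF was at 0.156 FPKM in untreated and 0.0231 in LATS2 OE, a value that stands for very few reads of so short a gene. HIST1H2BH (0.983 and 0.916) and HIST2H2BE stayed within the mark, as did HIST1H2BN, at 1.12 FPKM in untreated and 0.943 in LATS2 OE.

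The low H3 genes were divided as well. HIST1H3A was at 0.512 FPKM in untreated and 0.764 in LATS2 OE, HIST1H3B at 0.333 and 0.527, and HIST1H3E at 0.421 and 0.556. Lower values in LATS2 OE were found for HIST1H3H (0.954 and 0.760), HIST1H3C (0.283 and 0.192) and HIST1H3G (0.325 and 0.260). These 6 genes all passed the mark, 3 in each direction. HIST1H3J was at 0.107 and 0.124, and HIST1H3F, under 0.1 FPKM in untreated, at 0.0674 and 0.114.

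Of the 9 low H4 genes, 5 were lower and 4 higher in LATS2 OE. HIST1H4E was at 0.630 FPKM in untreated and 0.518 in LATS2 OE, and HIST1H4B at 0.227 and 0.157, both past the mark. HIST1H4I, which shares its deposited locus with HIST1H2BK, was at 0.131 and 0.0901. Within the mark were HIST1H4H (0.722 and 0.646), HIST4H4 (0.720 and 0.677) and HIST1H4A (0.265 and 0.285). Under 0.1 FPKM in both groups, HIST1H4D was at 0.0721 and 0.0975, and HIST1H4J and HIST1H4L were also higher in LATS2 OE. The only low H1 gene of 0.1 FPKM or more was HIST1H1E, at 0.248 and 0.262.

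**Figure D3:**
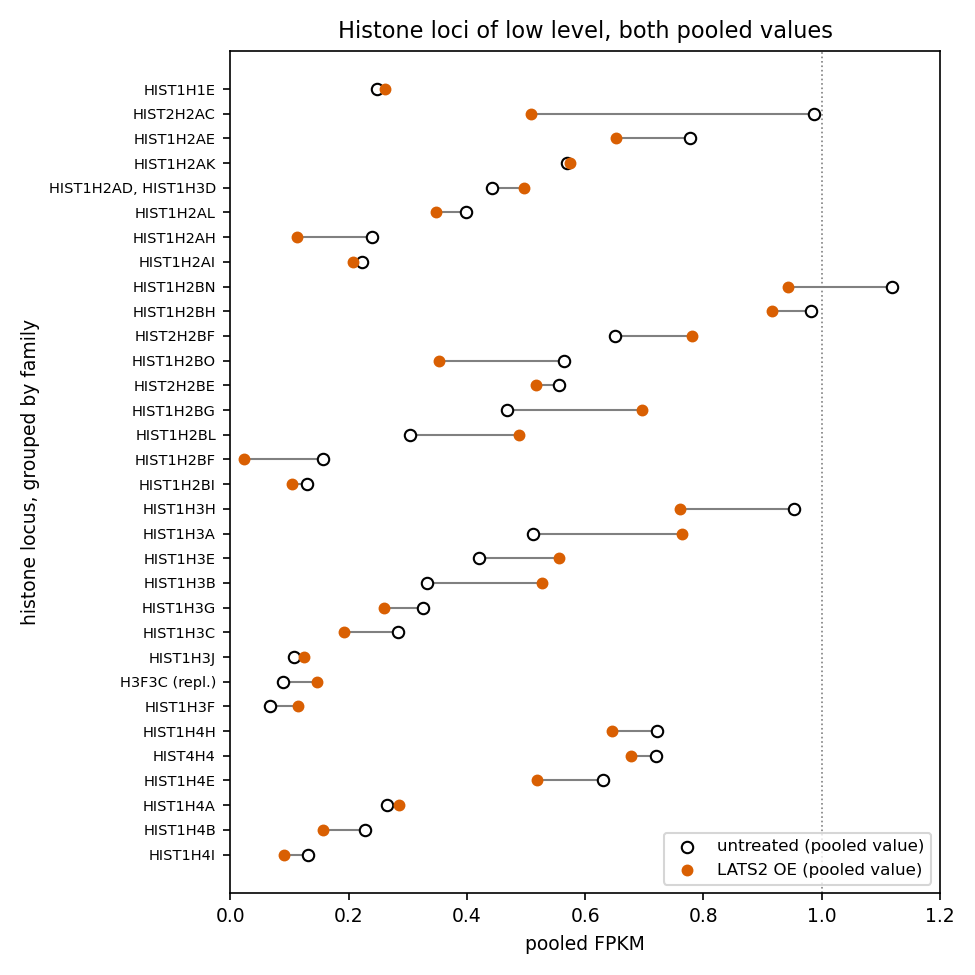
Pooled FPKM (x axis) in untreated (open) and LATS2 OE (filled) for the histone loci of at least 0.1 FPKM in a group that were under 1 FPKM in 1 or both groups, sorted by family, with a line joining both values of a locus. HIST2H2AC, at 0.987 and 0.508 FPKM, has the longest line.

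A further 14 loci were under 0.1 FPKM in both groups and above 0 in at least 1. In 5 of them, HIST3H3, HIST1H2AB, HIST1H2BB, HIST1H2AJ and HIST1H4L, untreated was listed at 0 and LATS2 OE between 0.0216 and 0.0449 FPKM. In 6 replication-dependent loci of 430 to 481 bases the lowest value above 0 fell between 0.0181 and 0.0231 FPKM, and HIST1H2BF in LATS2 OE was one of these values. For genes this short such a level stands for very few reads, so ratios between such values were not read as differences.

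The width of these ratios went with the level in the whole table. The median absolute log2 ratio of all loci was 0.43 at a mean of 0.02 to 0.1 FPKM, 0.35 at 0.1 to 0.3, 0.24 at 0.3 to 1 and 0.0731 at 1 FPKM or more. For replication-dependent loci it was 0.65 (11 loci), 0.32 (10 loci), 0.27 (18 loci) and 0.0909 (12 loci). Both series narrowed in the same order.

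**Figure D4:**
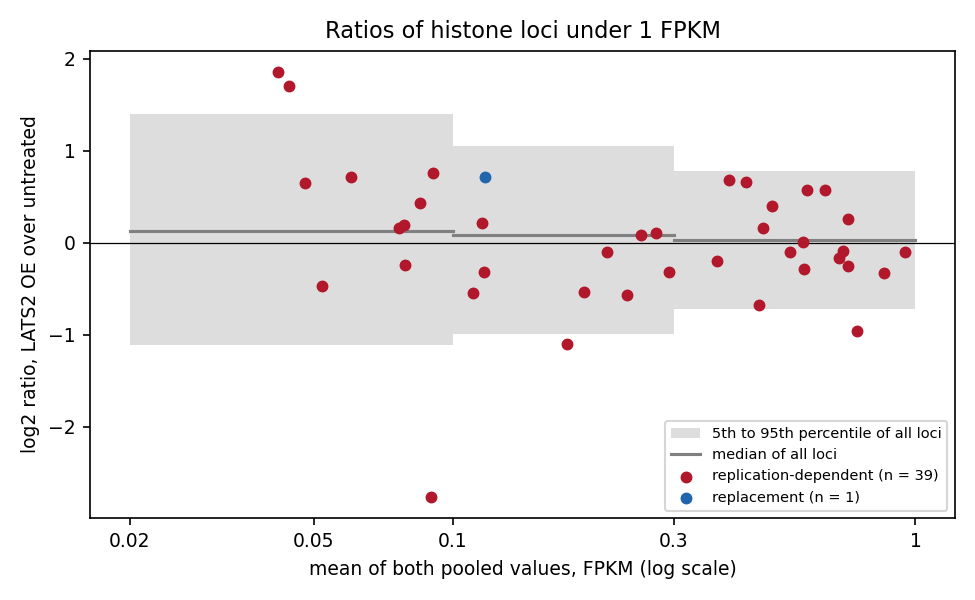
Log2 ratio, LATS2 OE over untreated (y axis), against the mean of both pooled values (FPKM, log scale) for the 39 replication-dependent loci and 1 replacement locus under 1 FPKM with a value above 0 in both groups. Grey boxes run from the 5th to the 95th percentile of all loci in 3 ranges of level and grey lines mark their median, and most histone loci lie inside the boxes.

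Many H2A and H2B genes start back to back and share the stretch between them as a promoter. The GENCODE models gave 11 such pairs among the members, with 170 to 289 bases between the starts. In 7 of the 11 pairs both genes had a ratio, with the same sign in 3 and opposite signs in 4. HIST1H2BF and HIST1H2BG had no matched model, so any pair with them is missing from these counts. Their log2 ratios were opposite in sign to those of the H2A loci beside them. HIST1H2BF, on very few reads, had -2.76 beside 0.17 for the locus of HIST1H2AD. HIST1H2BG had 0.57 beside -0.25 for HIST1H2AE. HIST1H2AG and HIST1H2BJ, the only pair with both genes past the mark, differed in opposite directions (log2 ratios -0.37 and 0.33). HIST1H2AC and HIST1H2BC, which share a deposited locus, were close at 0.055 and 0.092. HIST1H2AK and HIST1H2BN, of opposite sign at 0.011 and -0.25, also share a deposited locus.

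The stretch between HIST1H2BJ and HIST1H2AG is shown because their ratios were opposite although their starts lie 248 bases apart. It runs from the upstream end of 1 deposited locus to that of the other, chr6:27100576-27100816 on hg19, 241 bases on the plus strand, with HIST1H2BJ leaving to the left and HIST1H2AG to the right. Capitals mark the letters TATAAA of the TATA box, CCAAT of the CCAAT box and ATTTGCAT of the octamer, read on either strand.
between HIST1H2BJ and HIST1H2AG: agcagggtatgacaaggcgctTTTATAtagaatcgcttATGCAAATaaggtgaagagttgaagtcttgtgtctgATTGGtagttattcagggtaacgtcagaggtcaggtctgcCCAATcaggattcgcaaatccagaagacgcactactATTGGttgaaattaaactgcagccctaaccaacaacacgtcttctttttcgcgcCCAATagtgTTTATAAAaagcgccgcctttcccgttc

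Each end has a TATA box, and 4 CCAAT boxes lie between them, 2 on each strand. The single octamer match, at base 39, lies on the HIST1H2BJ side. The TATA match at base 214 on the minus strand overlaps the one at base 216 on the plus strand.

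The same letters were counted on both strands in RefSeq promoters (build GRCh38.p14) that reach from 250 bases before to 50 bases after the start of each gene. Of the members 70 matched this table by name. Not matched were H1F0, H3F3C, HIST1H2AH, HIST1H2APS1, HIST1H2BF, HIST1H2BG, HIST1H3I, HIST1H3J, HIST1H4A, HIST1H4C, HIST2H2BA and HIST2H2BC. A TATA box was found in 40 of 60 replication-dependent promoters (66.7%), 4 of 10 replacement promoters (40.0%) and 12.0% of all 27305. The octamer, bound by POU2F1 (OCT-1), was found in 24 of 60 (40.0%), 1 of 10 (10.0%) and 1.8%. By family it was in 11 of 15 H2A promoters (73.3%), 12 of 16 H2B (75.0%), 1 of 11 H3 (9.09%) and none of 12 H4 or 6 H1 promoters. CCAAT was found in 85.0% of replication-dependent, 70.0% of replacement and 35.7% of all promoters. Back-to-back genes share a promoter, so these counts are not of independent sequences.

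**Figure D5:**
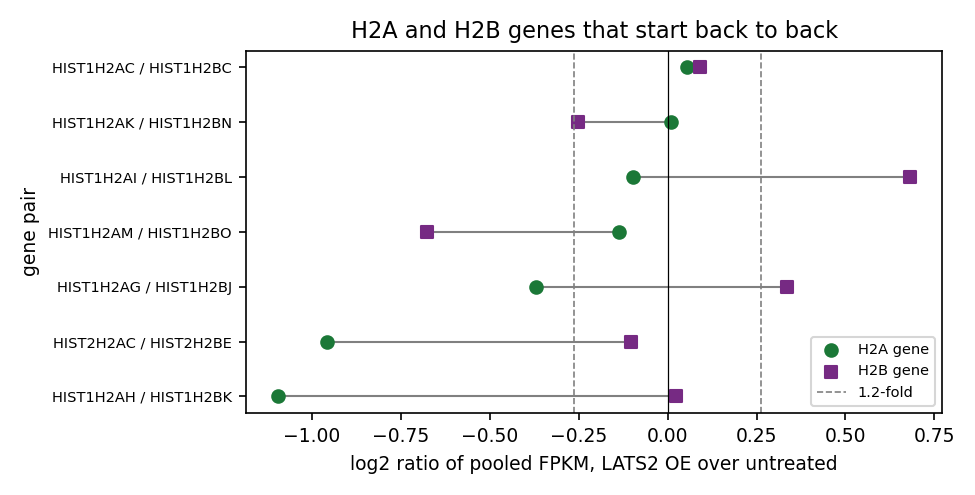
Log2 ratio of pooled FPKM, LATS2 OE over untreated (x axis), of the H2A gene (circle) and the H2B gene (square), with dashed lines at 1.2-fold. Shown are the 7 back-to-back pairs of matched gene models in which both genes had a ratio. In 4 pairs the genes lie on opposite sides of 0, among them HIST1H2AG (-0.37) and HIST1H2BJ (0.33).

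The genes that make and process histone mRNA hardly differed between the groups. All 26 genes of that list had at least 1 FPKM and none passed the mark, beside 12.7% of all loci of this level. Their ratios on the log2 scale ran from -0.21 (CPSF1, the large subunit of the cleavage and polyadenylation factor) to 0.12 (CCNE1, cyclin E). The median was -0.0062, beside -0.0042 over all loci of this level. SLBP, which binds the stem-loop, had a ratio of 0.994. NPAT, the coactivator of replication-dependent histone genes, had a ratio of 1.02, and LSM10 and LSM11 of the U7 particle that cuts the mRNA after the stem-loop had 1.03 and 0.951.

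Histone chaperones were similar. Of 29 genes, all of at least 1 FPKM, only CABIN1, a subunit of the HIRA complex that deposits the replacement H3, passed the mark, with a ratio of 1.24. That is 3.45% of the list, beside 12.7% of all loci of this level. HIRA itself had a ratio of 0.991. Their median log2 ratio was 0.0038.

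S phase genes were expressed in both groups. All 28 had at least 1 FPKM and their median log2 ratio was -0.0110. E2F2, a transcription factor of the G1/S step, was past the mark upward (ratio 1.22) and CDC25A, a phosphatase that drives entry into S phase, downward (ratio 0.812). Together they are 7.14% of the list, beside 12.7% of all loci of this level. PCNA, the sliding clamp, had a ratio of 1.03 and MCM2, a subunit of the replicative helicase, 0.973.

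Of 7 histone-like genes outside the naming rule, 6 were in the table. CENPA, the H3 of the centromere, was the only one of at least 1 FPKM (ratio 1.05), while H2BFM, H2BFWT, H1FNT, H1FOO and HILS1, mostly known from the germ line, were under 0.1 FPKM in both groups or listed at 0.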

How the data were processed

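The series holds 8 RNA-seq samples, 4 per group. The authors selected poly(A) RNA, made unstranded libraries, sequenced single reads of 80 bases and, after Trimmomatic (version 0.33), mapped them with TopHat on hg19 and quantified with Cufflinks. Neither the gene annotation nor the other versions were given in the sources used here. They deposited pooled FPKM values, 1 per group and locus. The table's test statistics, p-values and q-values, the authors' own comparison, were not used. Its log2 ratio column was read only to place lost decimal points and is not reported. Placed values had to fit it within 0.002, or within a wider limit where the ratio was written in E notation. Of 20636 loci above 0 in both groups, 20626 gave 1 ratio. Placing was tested on simulated data.

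Ratios were computed from the placed FPKM values in Python (version 3.11.15) with pandas (version 2.3.3), without a test. Stem-loops and pairs came from GENCODE release 44 on GRCh37, which has the coordinates of hg19. Named were all members of at least 0.1 FPKM in a group, LATS2, SLBP and up to 3 genes past the mark per list; NPAT, LSM10, LSM11, HIRA, PCNA, MCM2, CPSF1, CCNE1, HIST1H4J and other members under 0.1 FPKM or at 0 were added after their values were seen, as were the markers named. Members and gene lists were chosen with earlier results of these data known. Of the 82 names, 79 matched a GENCODE gene. The labels do not say whether replicates were separate cultures.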

Additional observations from a re-analysis of the deposited data

How the results depend on the processing

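No paired analysis was possible because the table holds 1 pooled value per group, and for the same reason no replicate could be left out. The replication-dependent loci past 1.2-fold, 4 of 12, became 0 at 1.5-fold, 2 of 6 without loci longer than 5000 bases, 19 of 40 from 0.1 FPKM in both groups, 28 of 52 from any value above 0 and 26 of 57 with a pseudocount of 0.1 FPKM. Their median log2 ratio became -0.0739 from 0.1 FPKM and -0.0532 without the long loci. The replacement loci past the mark, 1 of 10, became 0 at 1.5-fold, and 2 at 1.1-fold, from any value above 0 and with the pseudocount. The larger counts come with more and lower loci entering. The other 23 of 34 settings left counts within 1.5 times and medians within 0.05. They include 2 chosen after seeing the data, placing each point at the ratio nearest to 1 without the deposited ratio, and leaving out loci annotated as other than protein-coding. Placing by the nearest ratio changed 27 loci of at least 1 FPKM, LATS2 among them (2.01-fold in place of 20.1-fold) and none of them a histone locus. All 22 histone loci of at least 1 FPKM stayed on their side of 1.2-fold when ratios were centred on the median of all loci or placed in that way.

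Pooled values limit all of this. Neither the spread between cultures nor the counting error of a value is known, and with short genes under 0.1 FPKM a few reads decide the ratio. In poly(A) RNA a low value of a replication-dependent gene does not say how much of its stem-loop mRNA was present.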
